A study of Mus musculus with 32 samples.

Results

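Ghrh is the gene for growth hormone-releasing hormone, and it was followed here through the conversion of 3T3-L1 cells, an established mouse preadipocyte line, into adipocytes with and without knockdown of the zinc finger gene Zbtb9. It is 1 gene of the 20560 in the deposited expression table, matched by its symbol. It was chosen by its measured values at day 11, among the largest rises in knockdown over control cells, so the day 11 difference between knockdown and control is given as a description only and carries no test. The series holds 32 RNA-seq libraries from days 0, 3, 7 and 11 of differentiation. At each day 2 libraries came from cells with Zbtb9 shRNA 1, 2 from cells with Zbtb9 shRNA 2 and 4 from cells with the control hairpin shCtrl, whose genotype the labels give as WT. All groups received the same medium: dexamethasone, IBMX and insulin from day 0, insulin alone from day 3, and no additive from day 7. The labels call the cells preadipocytes at day 0, premature adipocytes at days 3 and 7, and mature adipocytes at day 11. Whether the hairpin lines were clones is not given in the sources used here, nor whether replicates were separate cultures, so each p-value measures only the spread between these libraries.

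GHRH is a peptide hormone of the glucagon and secretin family, best known from neurons of the hypothalamic arcuate nucleus. It is cut from a longer precursor, reaches the pituitary, and binds GHRHR, a receptor that couples to the G protein Gs and raises cyclic AMP. The pituitary then makes and releases growth hormone, whereas somatostatin opposes this release. Growth hormone acts on liver and fat through GHR, JAK2 and STAT5, and induces IGF1 as well as the feedback inhibitors of the SOCS family. GHRH is also made outside the brain, in placenta and gonad among other tissues, from alternative first exons.

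The gene (ENSMUSG00000027643) lies on the minus strand at chr2:157329497-157347506 in the GENCODE M21 annotation of build GRCm38. The build used for the deposited table is not given in the sources used here. Its exons cover 668 bases, none of them shared with another annotated gene, and no other annotated gene overlaps it. GENCODE lists 3 transcripts of 5 exons each, Ghrh-201, Ghrh-202 and Ghrh-203, which differ in their first exon. RefSeq (GRCm38.p6) gives 2 start sites, at 157346655 and at 157337426. The deposited value sums all transcripts, so the start sites could not be told apart. The 250 bases before each are shown because the gene has alternative promoters. They run 5′ to 3′ on the minus strand, and capitals mark matches on either strand to TATAAA (the core promoter box of that name), to TGACG (the core of a cyclic AMP response element) and to AGGTCA (a nuclear receptor half-site).
Upstream of 157346655 (chr2:157346656-157346905): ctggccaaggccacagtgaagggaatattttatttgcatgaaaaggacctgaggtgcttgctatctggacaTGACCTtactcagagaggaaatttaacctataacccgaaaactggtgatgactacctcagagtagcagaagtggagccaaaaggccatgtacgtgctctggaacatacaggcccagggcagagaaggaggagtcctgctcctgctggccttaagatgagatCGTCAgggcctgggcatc
Upstream of 157337426 (chr2:157337427-157337676): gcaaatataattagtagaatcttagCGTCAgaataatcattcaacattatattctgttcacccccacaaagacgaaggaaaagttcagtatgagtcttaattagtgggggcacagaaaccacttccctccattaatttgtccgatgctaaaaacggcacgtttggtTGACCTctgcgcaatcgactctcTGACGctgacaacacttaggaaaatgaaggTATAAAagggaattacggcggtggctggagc
The window before 157346655 held TGACG, beginning 18 bases before the start, and AGGTCA, beginning 179 bases before it. The window before 157337426 held TATAAA at 31 bases, TGACG at 61 and at 225 bases, and AGGTCA at 84 bases. These strings are common: among 32851 windows of the same length before RefSeq start sites, 12.4% held TATAAA, 17.8% TGACG and 14% AGGTCA. Neither window matched TTGCNNAA, a form that C/EBP factors bind, the CCAAT box of NF-Y, the GC box GGGCGG or the E-box CANNTG.

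The libraries held between 22281619 and 31073814 reads. At day 11 the control libraries (26486005 to 31073814 reads) were all deeper than the knockdown libraries (22840245 to 25513149), and at the other days the ranges overlapped. Zbtb9 itself was near the detection limit, with 0 to 23 reads per library. In knockdown its mean stood at 61.9% of control on day 0, then 50.6% on day 3, 42.7% on day 7 and 54.5% on day 11. With limma, the linear model used for every test across genes here, its difference passed an adjusted p of 0.05 at day 7 (log2 difference -0.35 ± 0.12 SE, adjusted p = 0.0237) and on none of the others (adjusted p = 0.248, 0.184 and 0.164 for days 0, 3 and 11). At day 11 one knockdown library, shRNA 1 replicate 2, held 19.3 normalized Zbtb9 reads, inside the control range of 12.1 to 20. Adipoq, which encodes adiponectin, went in control from 0.207 ± 0.414 normalized reads (SD, n = 4) at day 0 to 2520 ± 323 at day 11. Some other adipocyte markers were highest at day 7: control Fabp4 stood at 15506 ± 891 at day 7 and 4687 ± 637 at day 11, and Slc2a4 at 312 ± 17.8 and 111 ± 20.4. Lep, the leptin gene, stayed at 5 reads or fewer in every library.

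Ghrh was not detected in the preadipocytes, appeared between day 3 and day 7, and was far more abundant in knockdown than in control cells from then on. At day 0 all 8 libraries held 0 reads of it. At day 3 the 2 shRNA 1 libraries held 1 read each, 1 control library held 2 reads, and the other libraries held 0. At day 7 the knockdown libraries held 776 and 782 normalized reads with shRNA 1 and 867 and 1018 with shRNA 2. The day 7 control libraries held 84.6, 66.9, 94.2 and 65.8. At day 11 the values were 708 and 963 with shRNA 1, 678 and 828 with shRNA 2, and 25.2, 54.2, 31.4 and 69.7 in control. Every knockdown library of days 7 and 11 lay above every control library of the same day. A normalized read is a read count, rebuilt from the deposited log2 value and divided by the library's size factor, so libraries of different depth can be compared.

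**Figure D1:**
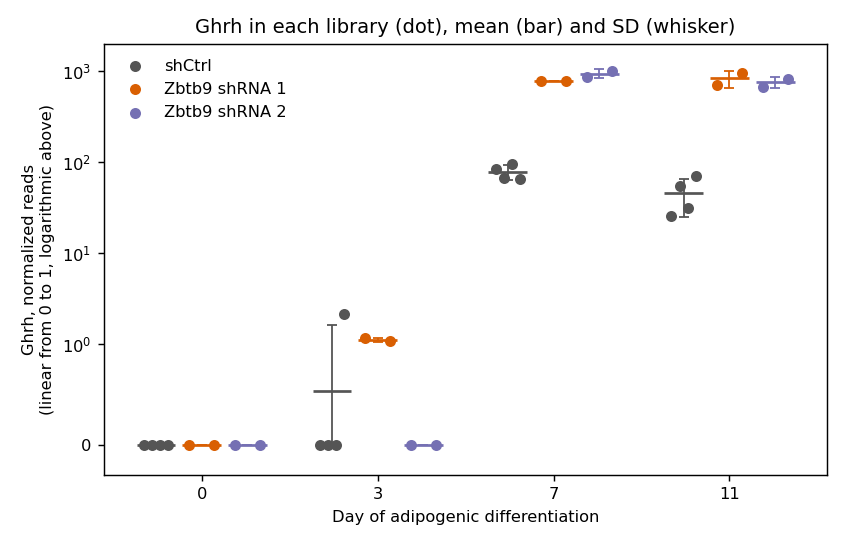
Ghrh in normalized reads (y axis, linear from 0 to 1 and logarithmic above) against day (x axis); each dot is 1 library, bars are means and whiskers SD, cut off at 0. The day 7 and day 11 libraries of both hairpins sit between 678 and 1018, and the control libraries of those days between 25.2 and 94.2.

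The rule that chose the gene used day 11, so the main test was made on the libraries of day 7. Knockdown libraries averaged 861 ± 113 normalized Ghrh reads against 77.9 ± 13.9 for control (SD, n = 4 each), an 11.1-fold excess. The lowest knockdown library exceeded the highest control library 8.24-fold. On the deposited log2 scale the means were 9.31 ± 0.17 and 6.14 ± 0.22, a difference of 3.17 ± 0.12 (SE, 95% interval 2.91 to 3.42, limma adjusted p = 3.92e-11). The deposited values are drawn toward each gene's mean, and on log2 of normalized reads plus 1 the difference was 3.46 ± 0.13 (SE). An exact two-sided permutation test of the 8 values gave p = 0.029, the smallest that 4 against 4 allows, and 0.086 after adjustment over days 0, 3 and 7. The call belongs to a broad response: 24.6% of the 13571 genes tested were called higher at day 7 and 22.3% lower. Ghrh had the fifth largest rise of all of them, and the median difference over all genes was 0.00. The labels give bulk RNA, so a change in the share of cells that express Ghrh and a change in the RNA per cell cannot be told apart.

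At day 11, the day that chose it, Ghrh had the largest rise of the 13571 genes. The means were 794 ± 130 and 45.1 ± 20.6 normalized reads (SD, n = 4 each), a ratio of 17.6. The closest pair of libraries differed 9.74-fold. The log2 difference was 3.76 ± 0.23 (SE), on a day when 16.6% of genes were called higher and 15.9% lower. Hcar2, a receptor for nicotinic acid and ketone bodies, and Selenbp1, a selenium-binding protein, followed among the called genes with differences of 3.16 and 2.97. At day 7 the nearest in rank were the adhesion receptor Adgrf5 (3.34) and the alkaline phosphatase gene Alpl (3.30) above Ghrh. Below it came Hcar2 (3.07) and Slc2a4 (2.84), the insulin-responsive glucose transporter. No gene reached a difference of 3 at day 0 or day 3, whereas 6 did at day 7 and 2 at day 11.

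**Figure D2:**
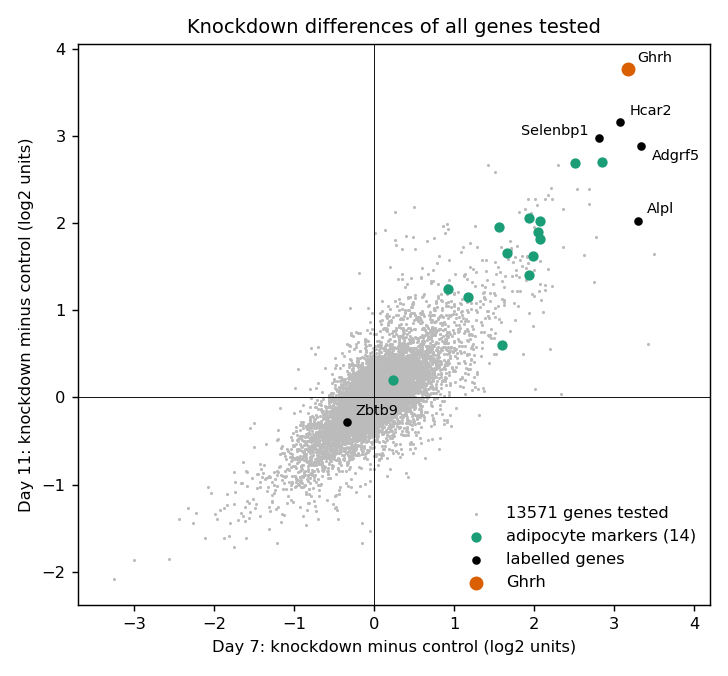
Knockdown minus control in log2 units at day 7 (x axis) and day 11 (y axis) for 13571 genes (gray), 14 adipocyte markers (green), Ghrh (orange) and Hcar2, Selenbp1, Adgrf5, Alpl and Zbtb9 (black). Ghrh lies at 3.17 and 3.76, above all other genes on the day 11 axis, while the adipocyte markers reach at most 2.84 and 2.70.

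Before day 7 no difference could be detected at this depth. At day 0 the limma difference was 0.00 (95% interval -0.19 to 0.19, adjusted p = 0.997), and here the deposited values vary only through the transformation, since no library held a read. Over the 8 day 0 libraries together, 0 of 216237888 reads allows a level of up to 0.0139 reads per 1000000 reads, for counting error only. At day 3 the difference was 0.01 (95% interval -0.20 to 0.22, adjusted p = 0.942), from 4 Ghrh reads in 202838095. The exact permutation test gave p = 0.97 at day 0 and 0.83 at day 3. Among all genes, 14.2% were called higher and 11.7% lower at day 3, against 0.788% and 2.36% at day 0. The knockdown effect on Ghrh at day 7 exceeded its effect at day 3 by 3.16 ± 0.22 (SE, 95% interval 2.71 to 3.60, limma adjusted p = 3.37e-12), a contrast in which 12.9% of genes were called higher. Its spread was estimated over all 32 libraries, those of day 11 included.

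Both hairpins gave the rise. At day 7 Ghrh in shRNA 1 cells was 10-fold and in shRNA 2 cells 12.1-fold above control, and each hairpin alone differed from control with limma (3.04 ± 0.13 SE, adjusted p = 6.61e-17, and 3.30 ± 0.13 SE, adjusted p = 4.33e-17). At day 11 the ratios were 18.5 and 16.7. No difference between the hairpins passed the threshold on the deposited values: shRNA 2 minus shRNA 1 was 0.25 at day 7 (95% interval -0.05 to 0.56, limma adjusted p = 0.27) and -0.13 at day 11 (-0.94 to 0.68, adjusted p = 0.837). With reads weighted by their precision (limma voom) the day 7 difference of 0.27 had an adjusted p of 0.0467. The hairpin lines did differ in many other genes, with 33.8% of those tested called in either direction at day 0, 18.6% by day 3, 16% by day 7 and 21.5% by day 11.

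The time course in control cells shows that Ghrh turns on without any knockdown. Control cells went from 0 reads at day 0 to a mean of 77.9 normalized reads at day 7, at least 28.7-fold above a floor of 3 reads per library. On the deposited values the log2 difference was only 2.65 (95% interval 2.31 to 2.99, limma adjusted p = 2.71e-14), in a comparison where 33.3% of genes were called higher. Libraries with 0 reads hold deposited values of 3.42 to 3.64, so that scale understates the rise, which was 6.29 on log2 of rebuilt normalized reads plus 1 and 7.44 with voom. In knockdown cells day 7 was at least 318-fold above that floor (log2 difference 5.82, 95% interval 5.59 to 6.05, limma adjusted p = 1.33e-24, with 37.7% of genes called higher). The same difference was 9.74 on rebuilt reads and 10.89 with voom. Day 3 did not differ from day 0 in control (0.16, adjusted p = 0.392) or in knockdown (0.17, adjusted p = 0.167), although 76.1% and 77.7% of genes were called between those days. From day 7 to day 11 the control mean went to 45.1, a ratio of 0.579, and the knockdown mean to 794, a ratio of 0.923, described without a test. Ordered by level, knockdown at day 7 and at day 11 overlapped (776 to 1018 and 678 to 963 normalized reads). Control at day 7 and at day 11 overlapped as well (65.8 to 94.2 and 25.2 to 69.7), and the day 3 and day 0 groups, at 2 reads or fewer, came last.

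Per length, Ghrh in the knockdown cells ranked among the more abundant transcripts. Normalized reads were divided by the exon bases of each gene and scaled to the same sum in every library. On that scale Ghrh reached 170 ± 25.6 (SD, n = 4) in knockdown at day 7 and 161 ± 24.4 at day 11, which ranked 1005 and 1043 among 20521 genes. In control it reached 16.1 ± 2.59 and 9.44 ± 4.26. For comparison on the same scale, Adipoq stood at 658 ± 144 in knockdown and 171 ± 17.7 in control at day 7. Igf1, the growth factor that growth hormone induces, stood at 16.3 ± 1.53 and 14.4 ± 1.22. The day 7 knockdown level of Ghrh lay within the spread of the control level of Adipoq on the same day.

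The adipocyte markers moved in the same direction, by smaller amounts. All 14 tested of 15 listed were called higher in knockdown at days 7 and 11, with median differences of 1.93 and 1.74, where 24.6% and 16.6% of all genes were called higher. At day 3, where Ghrh was at 2 reads or fewer, 13 of the 14 were already called higher (median 0.83), against 14.2% of all genes. Fabp4, the fatty acid-binding protein of adipocytes, differed by 1.66 at day 7. Pparg, the nuclear receptor that drives adipogenesis, differed by 1.17, and Dlk1, a preadipocyte factor, by -0.24 (limma adjusted p = 0.0119). Of 10 preadipocyte and fibroblast markers, 7 were called lower and 0 higher at day 7 (median -0.30), where 22.3% of all genes were called lower. At day 11, 4 were called lower and 0 higher (median -0.34), against 15.9% of all genes. The summed adipocyte markers ran from 63094 to 67903 normalized reads in control and from 167739 to 249232 in knockdown at day 7. Set against these markers, Ghrh had 9.92 to 14.6 reads per 10000 marker reads in control and 31.4 to 51.7 in knockdown. At day 11 it had 3.48 to 11.3 and 43.7 to 71.3. At day 7 the groups did not overlap and the ratio of means was 3.47, a scaling added after the data were seen. The day 11 ratio of 8.05 rescales the values that chose the gene and is a description. Lpl, the lipoprotein lipase, and Fabp4 held 55.8% of the summed marker reads in control and 55% in knockdown at day 7. At day 11 they held 72.8% and 57.6%, so the make-up of the sum differed between the arms. Set against each of the 14 markers in turn, the fold of Ghrh was between 1.38 times (Slc2a4) and 9.3 times (Acaca) the marker's own at day 7, and between 2.36 and 15.2 times at day 11, for the same markers. The medians over the 14 markers were 2.71 and 5.08 times, the latter below the 8.05 from the sum.

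The hormone's own receptor was not a detectable part of the picture. Ghrhr had 12 reads over the 16 control libraries, at most 5 in one, and 0 reads in all 16 knockdown libraries. Of the pituitary list (the receptor, growth hormone, ghrelin, somatostatin and prolactin genes and their receptors), 8 of 17 genes were in the table and only Ghr and Prlr passed the filter on low values. Gh and Sst were not analysed here. Ghr, the growth hormone receptor, was abundant throughout. It had 24165 ± 1197 normalized reads in control and 32973 ± 1977 in knockdown at day 3 (limma adjusted p = 4.78e-05), but 24595 ± 1291 and 25985 ± 1444 at day 7 (adjusted p = 0.273). At day 11 it was again higher in knockdown, 19900 ± 3619 against 15607 ± 919 (0.32, adjusted p = 0.0464). There the shRNA 2 libraries held 24031 and 21140 and the shRNA 1 libraries 18985 and 15446, the last inside the control range of 14919 to 16963. Prlr, the prolactin receptor, was at 153 ± 30 in control and 456 ± 36.3 in knockdown at day 7 (log2 difference 1.38 ± 0.12 SE, adjusted p = 1.29e-07). Its difference at day 11 was 1.13, and at day 3 it was already called higher (0.76, limma adjusted p = 0.00169).

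**Figure D3:**
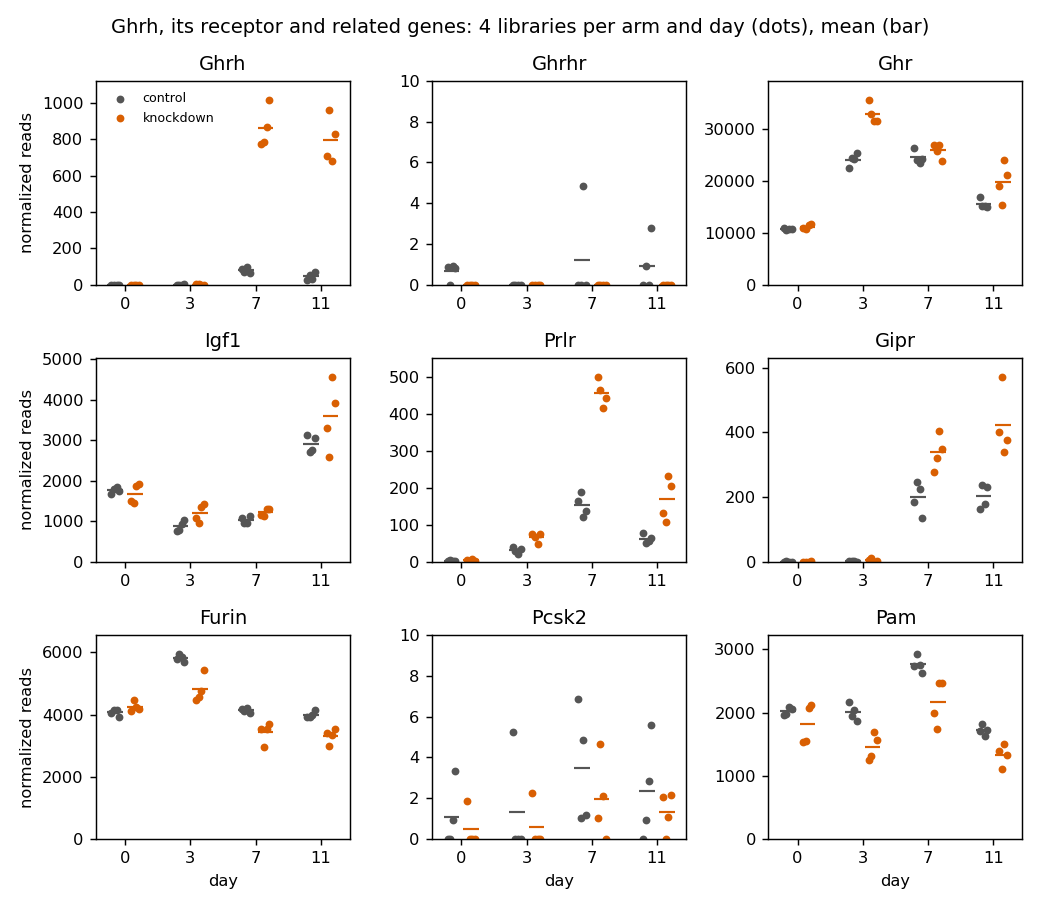
Normalized reads (y axes, each from 0) by day (x axes) for Ghrh, receptors, Igf1 and processing enzymes; dots are the 4 libraries per arm and day, bars their mean. Ghrh and Gipr separate the arms at days 7 and 11, and Prlr does so from day 3. Ghrhr and Pcsk2 stay at 7 reads or fewer, and Furin and Pam are lower in knockdown from day 3.

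The 5 lists of related genes together held 34 tested genes of 89 listed, and their calls ran both ways. At day 7, 10 were called higher and 8 lower, 18 in all, where 46.8% of all genes tested were called. At day 11, 8 were higher and 8 lower (32.4% of all genes called), and at day 3, 7 and 8 (25.9%). At day 0, 1 was called, against 3.15% of all genes. Their median difference was -0.01 at day 7 and 0.00 at day 11, against 0.00 and -0.01 over all genes.

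Of 16 growth hormone response genes tested, 5 were called higher and 4 lower at day 7 (median 0.10), near the shares over all genes of 24.6% and 22.3%. At day 11, 3 were called higher and 2 lower (median -0.04), with 16.6% and 15.9% over all genes. Socs1, a feedback inhibitor of JAK signalling, fell from 314 ± 45.9 normalized reads in control to 163 ± 16.1 in knockdown at day 7 (log2 difference -0.82, limma adjusted p = 1.37e-05). Its relative Cish rose, from 895 ± 54.5 to 1200 ± 113 at day 7 and from 672 ± 50.3 to 1227 ± 357 at day 11 (adjusted p = 0.000275 and 0.0122). Bcl6, a repressor that shares sites with STAT5, and Ptpn6, a phosphatase of cytokine signalling, rose at day 7 by 0.64 and 0.67. Igf1 was at 1033 ± 84.5 in control and 1223 ± 87.9 in knockdown at day 7 (0.23, adjusted p = 0.0111). At day 11 it was at 2912 ± 213 and 3592 ± 850 (adjusted p = 0.224), so the arms overlapped in their spread. Igfals, the subunit that holds IGFs in the circulating complex, had the list's largest difference, 1.80 ± 0.35 (SE, adjusted p = 0.0051) at day 11. Its 4 control libraries held 79.9 to 124 normalized reads, the shRNA 1 libraries 228 and 285, and the shRNA 2 libraries 589 and 828.

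Among relatives of GHRH and its receptor, 6 of 26 listed genes passed the filter, and the calls at day 7 were 2 higher and 1 lower (median 0.00), close to the 46.8% of all genes called. Gipr, the receptor of the gut hormone GIP, rose late like Ghrh, from 0 or 1 read at day 0 and at most 11 at day 3. At day 7 it was at 199 ± 49 normalized reads in control and 338 ± 53.4 in knockdown (0.70 ± 0.15 SE, limma adjusted p = 0.00193). At day 11 it was at 202 ± 37.5 and 422 ± 103, whereas both Ghrh means were lower at day 11 than at day 7. Adcyap1r1, the receptor of PACAP, was lower in knockdown at day 3 (-0.55, adjusted p = 0.00218) and higher at day 7 (0.77, adjusted p = 0.00452). Calcrl, the shared receptor chain for CGRP and adrenomedullin, was lower on days 3, 7 and 11 (-0.32, -0.65 and -0.77 in turn), with limma adjusted p from 1.19e-05 to 0.00729. Its day 0 difference of -0.54 was the 1 list call of that day (adjusted p = 0.032). That call was lost with no filter, with plain moderation, with the replicate block, and without any 1 of the 4 control libraries or shRNA 1 replicate 1. Vip and Adcyap1, 2 ligands closely related to Ghrh, were not analysed here.

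Of 18 listed genes for the maturation and storage of prohormones, 6 passed the filter. At day 7, 2 were called higher and 3 lower (median -0.14), where 46.8% of all genes were called in either direction. At day 11, 2 were called higher and 4 lower (median -0.25), where 32.4% of all genes were called. Furin, the ubiquitous proprotein convertase, fell from 4136 ± 76.3 to 3431 ± 318 normalized reads at day 7 (-0.26, limma adjusted p = 0.00213). Pam, which amidates the end of many peptide hormones, fell from 2761 ± 127 to 2167 ± 360 (-0.35, adjusted p = 0.0091). The carboxypeptidases Cpe and Cpd went opposite ways, -0.40 and 0.57 at day 7 and -0.52 and 0.50 at day 11. Pcsk4, a convertase known from germ cells, rose by 0.57 at day 11. Pcsk2, the convertase of neuroendocrine granules, held at most 7 reads in any library, the convertases Pcsk5 and Pcsk6 at most 8 and 12, and Pcsk1 was not analysed here.

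Transcription factors known from GHRH neurons gave no call at day 7 among 4 tested of 12 listed, with a median of -0.17, where 46.8% of all genes were called. At day 11 Dlx2 alone was called, lower (-0.29, limma adjusted p = 0.0373), where 32.4% of all genes were called. Gsx1, a homeobox factor needed for hypothalamic Ghrh, was not analysed here.

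Calls of single markers of other cell types stand against 24.6% of all genes called higher and 22.3% lower at day 7. The 11 neuronal and neuroendocrine markers in the table summed to 45.3 to 59.2 normalized reads in control and 58.9 to 74.2 in knockdown at day 7, with Stmn2, Slc17a6 and Agrp at 3 reads or fewer. One of the 3 that passed the filter, Snap25, was called higher, by 0.73. The 4 placental and gonadal markers in the table summed to 35 to 55.1 and 39.9 to 47.6, with no call. The 5 macrophage markers summed to 70.9 to 107 and 97.4 to 154, with Cd68 called higher (0.87), Lyz2 lower (-0.75) and Ptprc at 3 reads or fewer. The 5 endothelial markers summed to 13.8 to 34.5 and 26.2 to 48.7, the 3 lymphocyte markers to at most 3.04 and 2.32, and the 1 pituitary marker in the table to at most 4.86 and 2.92. Only 1 endothelial marker passed the filter and was tested, and it was not called; none of the lymphocyte and pituitary markers was tested. The epithelial keratins moved with the knockdown: at day 7 Krt8 held 866 and 840 normalized reads with shRNA 1, 54.5 and 126 with shRNA 2 and at most 18.7 in control. Krt18 held 75.5 to 139 in knockdown and at most 18.3 in control. Epcam and Cdh1, the other markers of that list, were at 3 reads or fewer in every day 7 library. At day 11 the macrophage markers summed to 209 to 308 in control and 313 to 648 in knockdown, with Cd68, a lysosomal protein, at 191 ± 57.3 and 395 ± 148 (0.86, limma adjusted p = 0.0286). Krt18 was again called higher (1.39), and so was Snap25 (0.32, at most 9 reads in a library), on a day when 16.6% of all genes were. Krt8 then held 110 and 81.8 with shRNA 1, 10.6 and 4.25 with shRNA 2 and at most 2.85 in control. The part of the keratins and of Cd68 in the Ghrh result was not tested.

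The neighbours of Ghrh on chromosome 2 differed by much smaller amounts. The 3 nearest named genes of the deposited table were Rpn2, Mroh8 and Rbl1 on one side and Manbal, Src and Blcap on the other. Rpn2, a subunit of the oligosaccharyltransferase, ends 3178 bases from Ghrh. Mroh8 did not pass the filter, with at most 5 reads in a library. At day 7 the 5 tested neighbours differed by -0.22 to 0.48, and 3 of them were called (either direction, 46.8% of all genes). Rbl1, a relative of the retinoblastoma gene, was higher (0.48) and so was Blcap (0.34), whereas Rpn2 was lower (-0.22). At day 11 they differed by -0.16 to 0.25, with 1 of 5 called against 32.4% of all genes.

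Across all 32 libraries, 227 of 12112 named genes followed the Ghrh values with a Pearson r of 0.9 or more, while the median over genes was near 0. The groups, meaning 12 combinations of hairpin and day, held 99.3% of the variance of Ghrh, so these r describe shared group means, and libraries of a group share their day and line. Highest was Selenbp1 (r = 0.986), which went from 83.4 normalized reads in control to 720 in knockdown at day 7. Its reads may be shared with its near-copy Selenbp2, so its level is uncertain. Next came Pde3b (0.975), the cyclic AMP phosphodiesterase through which insulin restrains lipolysis, at 110 and 433. Rnf144b (0.975), a ubiquitin ligase, stood at 46.3 and 431, and Il17re (0.974), an interleukin-17 receptor chain, at 24.6 and 185. Slc25a34 (0.974), a mitochondrial carrier, Mrpl45 (0.973), a mitochondrial ribosomal protein, Mettl7b (0.973), a methyltransferase, and Gprc5c (0.970), an orphan receptor, completed the 8 highest. They vary in size: Mrpl45 differed by 0.68 at day 7 and Rnf144b by 2.68, against 3.17 for Ghrh.

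**Figure D4:**
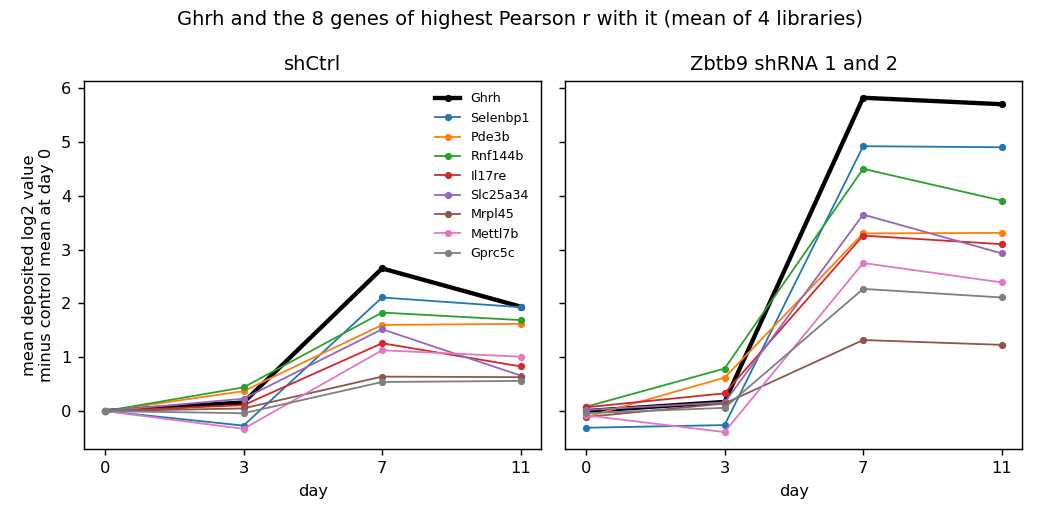
Mean deposited log2 value minus the control mean at day 0 (y axis) by day (x axis), in control (left) and knockdown (right), for Ghrh (thick black line) and the 8 genes of highest r; each point is the mean of 4 libraries. Ghrh reaches 2.65 in control and 5.82 in knockdown at day 7, above the other 8 in both.

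The lowest r belonged to Cd44 (-0.967), the hyaluronan receptor, Ppm1f (-0.961), a phosphatase, and Phc2 (-0.960), a Polycomb protein. Cd44 stood at 3383 normalized reads in control and 2375 in knockdown at day 7. Ranks gave a different picture: none of the 8 genes was among the 8 highest by Spearman's rho, which Ffar4, a receptor for long-chain fatty acids (rho = 0.980), and Gipr (0.969) led. With the group means removed, the genes that varied most like Ghrh among libraries of a group were P4hb (r = 0.925), Bsg (0.919), Sdc4 (0.882), Plod1 (0.866) and Pkm (0.862), over 32 deviations. Of these, 16 are from days 0 and 3, where libraries held 0 to 2 Ghrh reads and the deposited values vary mostly through the transformation, so these r say little about Ghrh RNA. P4hb is a disulfide isomerase of the endoplasmic reticulum, Plod1 a lysyl hydroxylase and Pkm a glycolytic enzyme.

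Few genes at the floor through day 3 reached a mean of 50 normalized reads later, and late genes below that limit were not counted. In a pattern defined after the values were seen, 2506 genes had 3 reads or fewer in all 16 libraries of days 0 and 3. Of these, 2 reached a mean of 50 normalized reads in control at day 7, Ghrh and Cyp2e1, and 9 reached it in knockdown. At day 11, 1 gene reached it in control, Aqp7 at 92.3 ± 29.2, where Ghrh stood at 45.1, and 10 reached it in knockdown. Cyp2e1, a cytochrome P450, stood the other way round at day 7, at 113 ± 30.1 in control and 40.2 ± 22.9 in knockdown (SD, n = 4). After Ghrh with 861, the highest of the 9 in knockdown were Apoc3, a lipoprotein component, at 178 ± 102, Slc22a20, an organic anion transporter, at 163 ± 79.8, and Aatk, a kinase, at 161 ± 113. Aqp7, the glycerol channel of adipocytes, stood at 32.9 ± 12.1 in control and 121 ± 39.8 in knockdown at day 7.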

How the data were processed

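The authors deposited 1 table of log2 values per gene and library, of the form that a regularized log transformation gives, from -1.56 to 17.99. Per the submitters' processing notes, TopHat2 2.1.0, Bowtie2 2.2.6, SAMtools 1.3.1 and HTSeq 0.6.1 were used; their roles, the build, the annotation, strand handling and the transformation are not given in the sources used here. From the shape of the values, reads were rebuilt by inverting the transformation: 98.9% of values came within 0.1 of a whole number (20% by chance), and all 32 Ghrh values did. In reads simulated for 20224 genes and put through the same transformation that the rebuilding assumes, 99.5% of the single read values were rebuilt exactly.

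Tests were fitted with limma 3.58.1 (R 4.3.3) on the deposited log2 values of the 13571 genes with a level (2 to the power of the value) of at least 10 in at least 4 libraries, with a mean-variance trend, robust moderation and Benjamini-Hochberg adjustment over all of them at 0.05. In a simulated day 7 comparison of 13571 genes, all 100 genes changed by 1 log2 unit and all 100 changed by 3 were called. Estimates came to 0.92 and 0.93 of those sizes, and 7.41% of calls were false. The simulation gave every gene the same small spread and no hairpin difference, and changed only genes well above the floor. Its shares therefore may not hold for the real day 7 data. Comparisons between arms used the libraries of that day, and those between days the 16 libraries of that arm; the difference between the day 7 and day 3 effects was fitted on all 32 libraries. The last 2 kinds thus take part of their spread from day 11. Precision per library is limited by counting: 3 reads, the floor used, equal 0.0965 to 0.135 reads per 1000000.

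Ghrh, the gene lists and the rule for named genes were chosen with earlier results of these data known. The rule took Ghrh, Zbtb9, its receptor and processing genes, list members called with an absolute difference of at least 0.5 (the 4 largest per list and day), the 8 highest and 3 lowest genes by correlation, 5 by within-group deviations, the nearest in rank and in the genome, and Adipoq, Fabp4, Pparg and Dlk1. Unnamed predicted genes were left out of ranked picks. Gene lengths came from GENCODE M21, which matched 20521 of 20560 identifiers. Alternatives were no filter, a filter within each fit, equal totals, plain moderation, 1 fit of all libraries, separate hairpins, a replicate block, leaving out each library, rebuilt reads on a log scale and voom. Figures were drawn with matplotlib 3.10.9.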

Additional observations from a re-analysis of the deposited data

Results flagged for a closer look

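At day 3, 1 of the 4 control libraries stood apart in Ghrh: replicate 4 held 2 reads (deposited value 3.77) and the others 0 (3.61 each), a gap of 0.951 of the group's range. Of 8 groups of 4 libraries examined it was the only one flagged, where chance flags about 1 in 20 groups of continuous values. With the other 3 libraries tied at 0 reads, a single library with any read gives such a gap, so the flag says little. The knockdown effect on Ghrh differed between days, by 3.16 log2 units between day 7 and day 3 in a test of the difference itself (limma adjusted p = 3.37e-12). All 4 knockdown libraries were above all 4 control libraries at day 7, and at day 3 the arms overlapped.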

How the results depend on the processing

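With the day 7 rise of Ghrh, direction and call held under all 19 alternatives: the log2 difference ran from 3.04 to 3.46, and from 3.09 to 3.25 with 1 library left out, with adjusted p from 3.39e-19 to 6.53e-06. The excess of the day 7 effect over the day 3 effect ran from 3.08 to 3.33. The day 11 difference was 4.21 on rebuilt reads and 4.24 with voom, in place of 3.76, and the day 11 minus day 0 differences were 5.41 and 6.52 in control, 9.62 and 10.76 in knockdown, since the deposited scale compresses low genes. The hairpin difference at day 7 was called with voom alone (0.27, adjusted p = 0.0467; the alternatives reached up to 0.709), and knockdown day 3 minus day 0 on rebuilt reads alone (0.53, adjusted p = 0.036; up to 0.916), which rests on 1 read in each of 2 libraries. Where no reads separated the groups the sign was unstable: knockdown minus control was -0.016 at day 0 with the replicate block and -0.044 at day 3 with shRNA 2 alone. With 1 library left out it ran from -0.021 to 0.031 at day 0 and from -0.015 to 0.053 at day 3, and the hairpin difference from -0.023 to 0.019 at day 0 and from -0.33 to 0.075 at day 11.

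Counts moved more. Genes called at day 0 were 427, but 257 with plain moderation, 3306 with the hairpins as separate groups, and 110 to 578 with 1 library left out; the list genes called then were 1, but 0 with no filter or plain moderation, 2 in 1 fit of all libraries, 10 with separate hairpins, and 0 to 2 with 1 library left out. Labels number the replicates 1 to 4 in control and 1 and 2 with each hairpin. Same-numbered libraries correlated by -0.0052 to 0.21, not by over 0.1 in every pair, so the numbers were not taken as a pairing. The 3 values over 0.1 were all at day 11, where the block gave Ghrh 3.89 ± 0.16 (SE) in place of 3.76 ± 0.23. Control replicates 3 and 4 have no same-numbered knockdown library, so within the block they add nothing to the difference between the arms. A replicate block called 0, 804, 4117 and 1646 genes at days 0, 3, 7 and 11, where the fit without it called 427, 3515, 6352 and 4403, and 0, 3, 11 and 4 list genes; the Ghrh call at day 7 held. At day 0, 25.1% of calls were rises, against 43.2% after scaling to equal totals, the 1 day on which this split moved by over 10 points. Ranking by Spearman's rho kept 0 of the 8 genes most like Ghrh. Depth limits days 0 and 3, where Ghrh stayed under the floor of 3 reads.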
